A study of Homo sapiens with 6 samples.

Results

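Eph receptors are receptor tyrosine kinases at the cell surface, and ephrins are their ligands, which are themselves bound to the membrane of the neighbouring cell. The measurements described here are the mRNA levels of 10 of these genes in SW480 cells, a human colon cancer line, before and after KIAA1199 was switched on. The genes were 3 EphA receptors (EPHA1, EPHA2 and EPHA4), 4 EphB receptors (EPHB1, EPHB2, EPHB3 and EPHB4), 1 ephrin-A ligand (EFNA1) and 2 ephrin-B ligands (EFNB1 and EFNB2). They were chosen by name from the Eph and ephrin family, and all 10 were found among the 26445 probe sets of the deposited table, in which a probe set carries the Ensembl identifier of its gene. The study asked which transcripts change when KIAA1199 is expressed, and EPHA2 was among the genes it followed up.

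All cells were of Clone 13, a single SW480 clone that carries the tetracycline repressor vector pcDNA6TR and the pT-Rex-DEST30-KIAA1199 construct, and both groups grew with blasticidin S and G418. The doxycycline group received 50 ng/ml doxycycline for 48 h according to the labels, and the uninduced group is labelled as non induced. Each group held 3 samples, which the study describes as 3 independent experiments, and each RNA sample was measured on 1 Human Exon 1.0 ST array (Affymetrix), which has probes along the exons of each gene. No arrays of doxycycline-treated cells without the construct were analysed here, so responses to the drug and to KIAA1199 cannot be told apart. The study cites earlier work in which doxycycline at the doses it used did not alter transcripts on microarrays, and this was not tested here. The levels of KIAA1199 itself and of epithelial markers were not analysed here, because their identifiers could not be matched to gene names. The study lists KIAA1199 among the genes raised on these arrays, and it shows the induced protein by Western blotting.

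Binding of an ephrin activates the kinase of the Eph receptor on the opposite cell (forward signalling). It can also send a signal into the cell that bears the ligand (reverse signalling), as with the transmembrane ephrin-Bs. EphA receptors bind mainly the GPI-anchored ephrin-As and EphB receptors mainly the ephrin-Bs, with EPHA4 accepting both kinds. In the intestinal epithelium, EphB receptors are made by the cells at the crypt base and ephrin-Bs by the differentiated cells above them, and their repulsion keeps the compartments apart. EPHB2 and EPHB3 are known there as targets of beta-catenin and TCF4.

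All 10 genes had a higher mean level with doxycycline, by 0.03 to 0.33 on the log2 scale, and the order of the 3 largest differences was EPHA2, EPHA4 and EPHB4. A positive mean difference was also found for 50.5% of all probe sets. EPHA2 and EPHA4 passed the limits that the study used, namely p below 0.025 before adjustment and at least a 1.2-fold change. The limits were applied here to the deposited probe sets, whereas the study applied them to transcript clusters. EPHA2 was on the study's list of changed genes from these same arrays, so its call here is not independent evidence. EPHA4 was not on that list, so its call comes only from the deposited probe sets as tested here. The study had tested the binding of EPHA2 to KIAA1199 because mass spectrometry had named it as a putative interactor. In SW480 clones with KIAA1199, the study also reported a modest increase of EPHA2 mRNA by qRT-PCR and of its protein by Western blotting. These limits were also passed by 5.83% of all probe sets in either direction and by 2.9% in the upward direction, with limma and the experiment as a block. In the top 25% by mean level, to which both genes belong, 4.93% passed them in the upward direction. After Benjamini-Hochberg adjustment over all probe sets, none of the 10 genes had an adjusted p under 0.05 (0 of 10), and neither did any other probe set (0% of 26445). At an unadjusted p under 0.05 there were 3 of the 10 genes (EPHA2, EPHA4 and EPHB4) and 12.3% of all probe sets. That count was 4 without the block, with EPHB2 added, where 9.73% of all probe sets were under 0.05. It was 5 with a variance prior that follows the level, with EPHB2 and EFNB1 added, where 14.6% were. Without experiment 1 the genes were EPHA2, EPHA4 and EPHB2 (9.92% of all probe sets), without experiment 2 only EPHA2 (8.01%), and without experiment 3 EPHA2 and EPHA4 (8%). In RNA from whole cultures, more cells with a transcript and more of it per cell cannot be told apart.

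**Figure D1:**
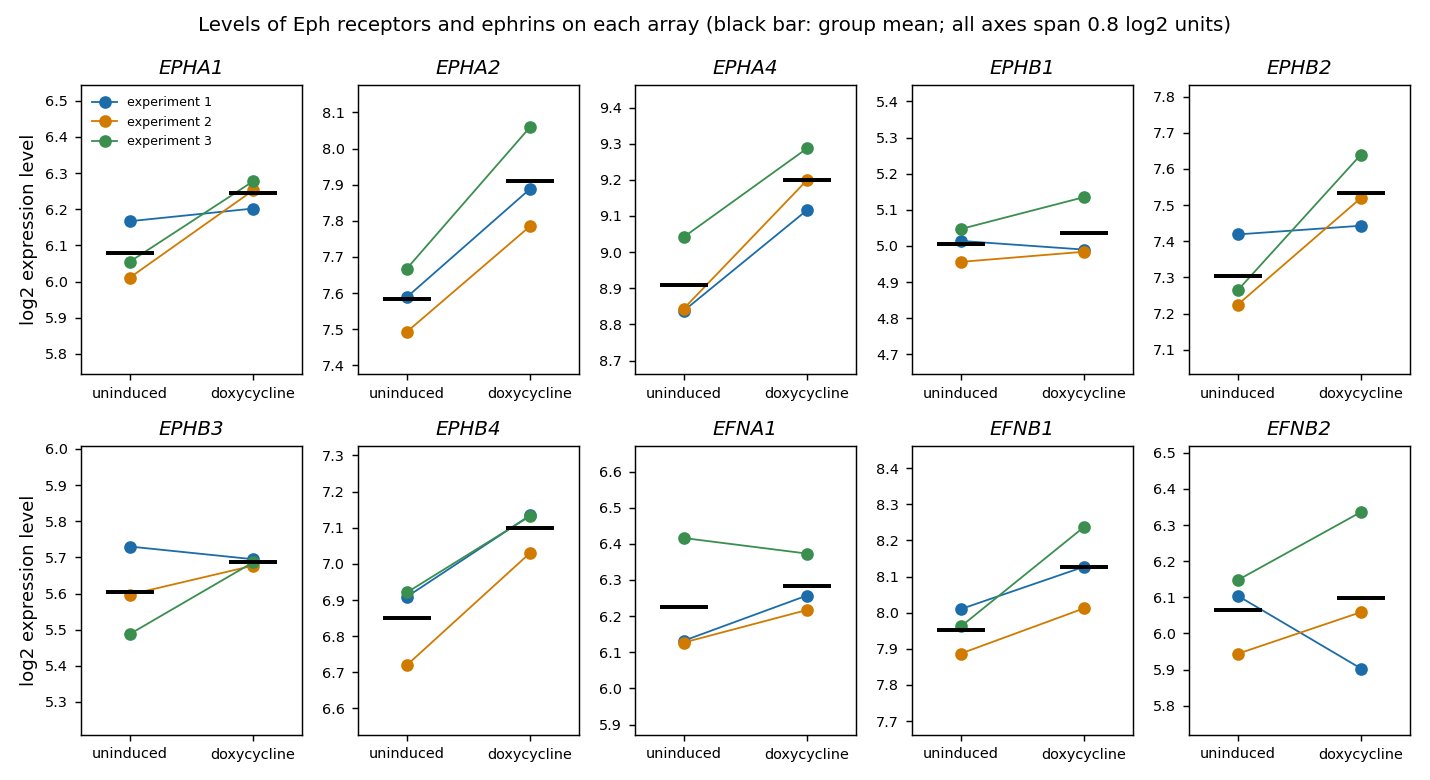
Log2 expression level of each gene on the 6 arrays (y axis, the same span in every panel) for uninduced and doxycycline-treated cells (x axis), where coloured lines join the arrays of an experiment and black bars are the means of 3 arrays. The levels of EPHA2 lay between 7.49 and 7.67 without doxycycline and between 7.79 and 8.06 with it, while the groups of EPHB1, EPHB3, EFNA1 and EFNB2 overlapped.

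EPHA2 (ENSG00000142627_at), an epithelial EphA receptor found at cell contacts, lies on chromosome 1 from 16124337 to 16156069 in GRCh38.p14. Its log2 levels without doxycycline were 7.59, 7.49 and 7.67 in experiments 1, 2 and 3, and with doxycycline they were 7.89, 7.79 and 8.06. Every doxycycline array was above every uninduced array, with a gap of 0.12 between the groups, against a range of 0.18 among the uninduced arrays. The mean went from 7.58 ± 0.09 (SD, n = 3) to 7.91 ± 0.14 (SD, n = 3), a log2 difference of 0.33 with a standard error of 0.06. This was a 1.25-fold change with a 95% confidence interval of 1.11 to 1.42, an unadjusted p of 0.0069 and an adjusted p of 0.35 (limma). The 3 experiments gave similar differences of 0.30, 0.29 and 0.39. An exact sign-flip permutation test over the 3 pairs gave a two-sided p of 0.25, the smallest that 3 pairs allow. A rise of at least this size was seen in 4.72% of all probe sets. EPHA2 was on the same side of the study's limits in all 8 alternatives that keep the 6 arrays, including a paired test of the kind the study used, run here on the deposited levels (unadjusted p = 0.0094). When experiment 1, 2 or 3 was left out the difference was 0.342, 0.345 and 0.296, but the unadjusted p was then 0.030, 0.033 and 0.037, which is outside the limits.

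EPHA4 (ENSG00000116106_at), a receptor for both kinds of ephrin that is best known from axon guidance, lies on chromosome 2 from 221418027 to 221574202. Its levels were 8.84, 8.84 and 9.04 without doxycycline and 9.12, 9.20 and 9.29 with it. The groups did not overlap, although the uninduced array of experiment 3 came within 0.07 of the lowest doxycycline array. The log2 difference was 0.29 with a standard error of 0.06, or 1.22-fold with a 95% confidence interval of 1.08 to 1.39 (unadjusted p = 0.010, adjusted p = 0.35, limma). In the separate experiments it was 0.28, 0.36 and 0.24, so that EPHA4 had its largest difference in experiment 2, whereas EPHA2 had its largest in experiment 3. Without experiment 1, 2 or 3 in turn, the difference of EPHA4 was 0.30, 0.26 and 0.32, with an unadjusted p of 0.043, 0.061 and 0.034, again outside the limits, with 2 pairs left in the fit.

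EPHA1 (ENSG00000146904_at), a receptor of ephrin-A1 on chromosome 7 from 143391129 to 143408856, had levels of 6.17, 6.01 and 6.06 without doxycycline and of 6.20, 6.25 and 6.28 with it. The groups were apart by only 0.04. Its differences of 0.04, 0.24 and 0.22 were unequal, with almost none in experiment 1, and the mean difference of 0.17 did not pass the limits (1.12-fold, 95% confidence interval 0.97 to 1.30, adjusted p = 0.48, limma).

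Among the EphB receptors, EPHB4 (ENSG00000196411_at), the receptor of ephrin-B2 known from the venous endothelium, had the largest difference. Its gene lies on chromosome 7 from 100802565 to 100827523. The levels were 6.91, 6.72 and 6.92 without doxycycline and 7.13, 7.03 and 7.13 with it, so the groups did not overlap and the gap was 0.11. The 3 differences were 0.23, 0.31 and 0.21, and their SD of 0.05 was the smallest among the 10 genes. The mean difference was 0.25 with a standard error of 0.06 (unadjusted p = 0.017, adjusted p = 0.36, limma). At 1.19-fold (95% confidence interval 1.05 to 1.34) it met the p limit but lay just under the fold change limit. An unadjusted p under 0.025 without a fold change minimum was thus reached by 3 of the 10 genes, and by 6.87% of all probe sets.

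EPHB2 (ENSG00000133216_at), the crypt receptor on chromosome 1 from 22710838 to 22921500, had levels of 7.42, 7.23 and 7.27 without doxycycline and of 7.44, 7.52 and 7.64 with it. The doxycycline arrays were above the uninduced ones by a gap of only 0.02, because the uninduced array of experiment 1 was nearly as high as its doxycycline partner. The differences were 0.02, 0.30 and 0.38 in the 3 experiments. Their mean was 0.23, a 1.17-fold change with a 95% confidence interval of 0.98 to 1.41, and it did not pass the limits (unadjusted p = 0.074, adjusted p = 0.45, limma). Without experiment 1 it was 0.34 (unadjusted p = 0.030), and without experiment 3 it was 0.16 (unadjusted p = 0.26).

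EPHB3 (ENSG00000182580_at), the other crypt receptor, on chromosome 3 from 184561785 to 184582408, had levels of 5.73, 5.60 and 5.49 without doxycycline and of 5.70, 5.68 and 5.69 with it. The 3 doxycycline arrays lay close together, with an SD of 0.01, and inside the wider range of the uninduced arrays. The log2 difference of 0.08 did not pass the limits (1.06-fold, 95% confidence interval 0.91 to 1.23, adjusted p = 0.71, limma). It was 0.139 without experiment 1 and 0.0225 without experiment 3. EPHB1 (ENSG00000154928_at), an EphB receptor best known from the nervous system, on chromosome 3 from 134795260 to 135260467, had levels of 5.01, 4.96 and 5.05 without doxycycline and of 4.99, 4.98 and 5.14 with it. Its groups overlapped as well, and the 95% confidence interval of its fold change ran from 0.90 to 1.16 around 1.02 (adjusted p = 0.88, limma). EPHB1 and EPHB3 were the only members in the lower 50% of probe sets by mean level. No detection calls were used, so it is not known whether their transcripts were above the background.

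Of the ligands, EFNB1 (ENSG00000090776_at), a transmembrane ephrin of the EphB receptors, on chromosome X from 68829021 to 68842160, had levels of 8.01, 7.89 and 7.96 without doxycycline. With doxycycline they were 8.13, 8.01 and 8.24. All 3 experiments gave a higher level with doxycycline, by 0.12, 0.13 and 0.28, but the groups only just separated, with a gap of 0.002. The mean difference was 0.17, or 1.13-fold with a 95% confidence interval of 0.98 to 1.29, and did not pass the limits (unadjusted p = 0.070, adjusted p = 0.44, limma).

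EFNA1 (ENSG00000169242_at), the GPI-anchored ligand of EPHA1 and EPHA2, on chromosome 1 from 155127876 to 155134899, had levels of 6.13, 6.13 and 6.42 without doxycycline and of 6.26, 6.22 and 6.37 with it. Both arrays of experiment 3 were higher than the other 4, and there the doxycycline array was the lower of the pair by 0.04. The log2 difference of 0.06 did not pass the limits (1.04-fold, 95% confidence interval 0.91 to 1.19, adjusted p = 0.78, limma). It was 0.0235 without experiment 1 and 0.1075 without experiment 3. EPHA2 was therefore past the study's limits where its ligand was not, but the difference between the responses of the 2 genes was not tested.

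EFNB2 (ENSG00000125266_at), the ligand of EPHB4 and a marker of arterial endothelium, on chromosome 13 from 106489745 to 106535662, varied most between experiments. Its levels were 6.10, 5.94 and 6.15 without doxycycline and 5.90, 6.06 and 6.34 with it, so the lowest and the highest of its 6 values were both from doxycycline arrays. The difference was negative in experiment 1, at -0.20, and positive in experiments 2 and 3, at 0.12 and 0.19. The SD of these differences, 0.21, was the largest of the 10 genes, and the mean of 0.03 did not pass the limits (1.02-fold, 95% confidence interval 0.84 to 1.25, adjusted p = 0.92, limma).

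**Figure D2:**
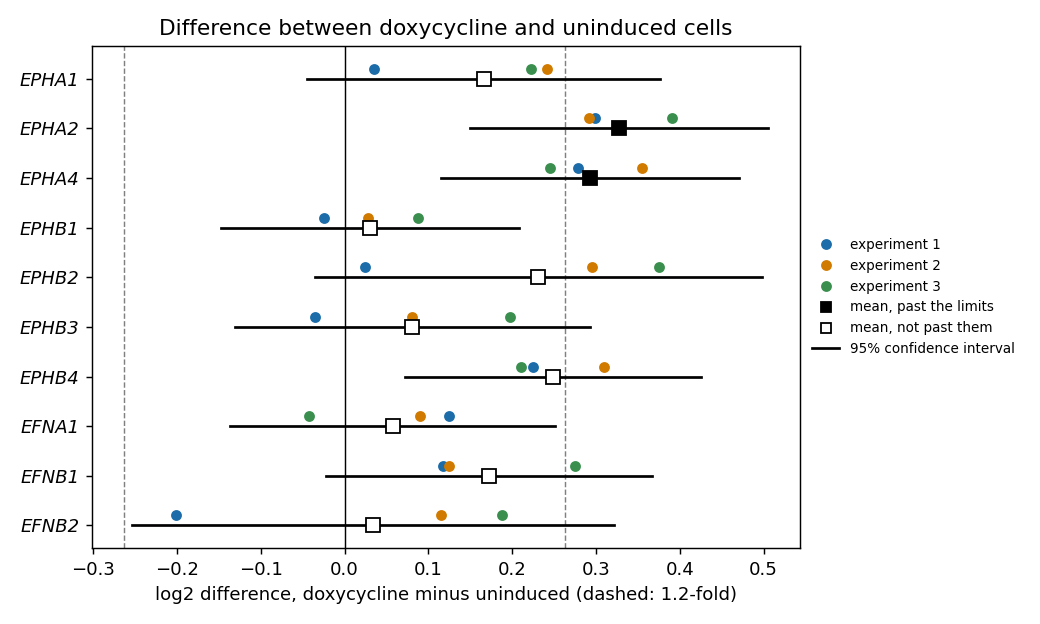
Log2 difference between doxycycline and uninduced cells (x axis) for each gene (y axis), where squares are means of 3 experiments, lines are 95% confidence intervals from limma, circles are the single experiments and dashed lines mark a 1.2-fold change. Only EPHA2 (0.33) and EPHA4 (0.29) have filled squares, past the study's limits, and the intervals of EPHA2, EPHA4 and EPHB4 lie above 0.

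By family, 2 of the 3 EphA receptors, 0 of the 4 EphB receptors and 0 of the 3 ephrins passed the limits, with 5.83% of all probe sets past them, and groups of 3 or 4 genes give no more than a description. The median log2 difference was 0.29 over the EphA receptors, 0.16 over the EphB receptors and 0.06 over the ephrins. Over all 10 genes it was 0.17, beside a median of 0.00 for all probe sets. Whether the families differ was not tested. The genes were higher with doxycycline in 7 of 10 cases in experiment 1, in 10 of 10 in experiment 2 and in 9 of 10 in experiment 3, with median differences of 0.08, 0.18 and 0.22. Of all probe sets, 49.1%, 51.0% and 51.2% were higher in the same experiments. Experiment 1 thus had the smallest median difference over these genes, and its exceptions were EPHB1, EPHB3 and EFNB2.

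All 3 experiments gave a higher level with doxycycline for 6 of the 10 genes (EPHA1, EPHA2, EPHA4, EPHB2, EPHB4 and EFNB1), as they did for 18.9% of all probe sets. For the same 6 genes the 3 doxycycline arrays lay above the 3 uninduced arrays, which was the case for 8.64% of all probe sets. Non-overlap of this kind was more frequent among probe sets with a high signal. In the 25% with the highest mean level, which hold EPHA2, EPHA4, EPHB2 and EFNB1, it was found for 15.2%, and in the next 25%, which hold EPHA1, EPHB4, EFNA1 and EFNB2, for 8.86%. The part of the signal level in these counts was not tested. The differences of the 10 genes had a median SD over the experiments of 0.09. For all probe sets it was 0.14, but it fell with the signal, from 0.24 in the lowest 25% by mean level, which holds none of the genes, through 0.18 and 0.12 to 0.10 in the highest.

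**Figure D3:**
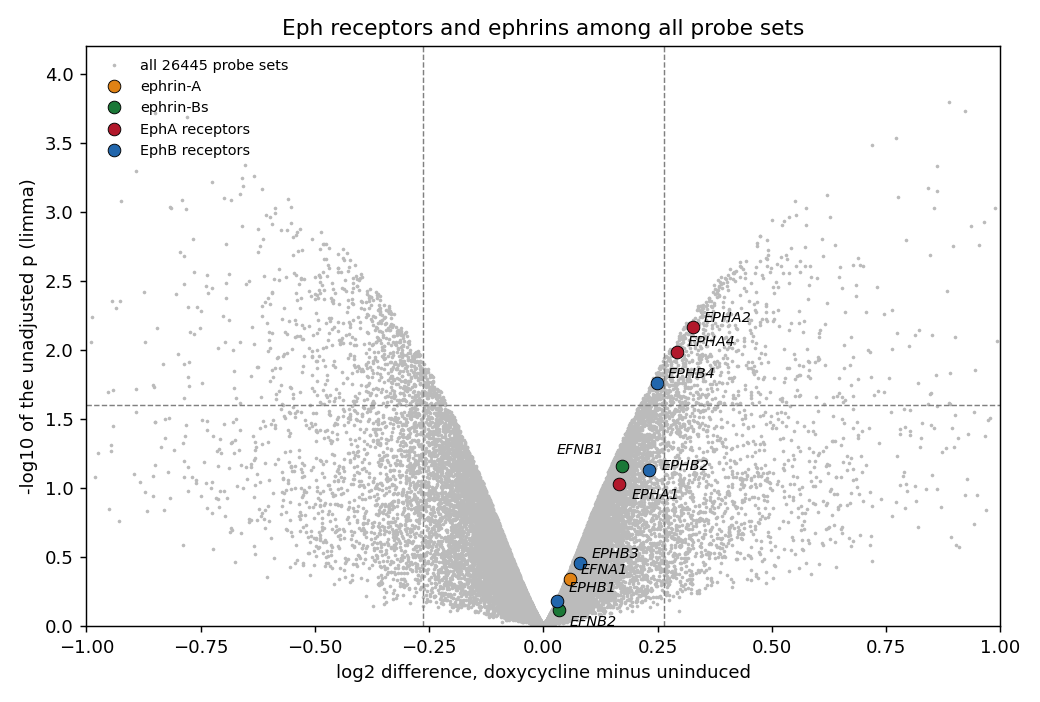
Log2 difference between doxycycline and uninduced cells (x axis) against -log10 of the unadjusted p from limma (y axis) for all 26445 probe sets (grey) and the 10 Eph and ephrin genes (coloured by family), with the study's limits as dashed lines; 54 probe sets with larger differences and 1 with a smaller p lie outside the axes. EPHA2 and EPHA4 sit in the upper right field, EPHB4 just left of its border, and all 10 genes lie to the right of 0.

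Over the 6 arrays, the levels most like those of EPHA2 among these genes were those of EFNB1 (Pearson's r = 0.95), EPHB4 (r = 0.93) and EPHA4 (r = 0.92). These correlations describe 6 arrays that share 2 groups and 3 experiments, and they do not stand apart in the table, since 1.94% of all other probe sets had a higher r with EPHA2 than EFNB1 had. EPHB2 and EPHA1, which lie on different chromosomes, followed each other with an r of 0.98, both with almost no difference in experiment 1. EPHB3 had an r of 0.35 with EPHA2 and of -0.48 with EFNA1. EFNB2 was closest to EPHB1 (r = 0.93) and had an r of 0.33 with its receptor EPHB4.

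**Figure D4:**
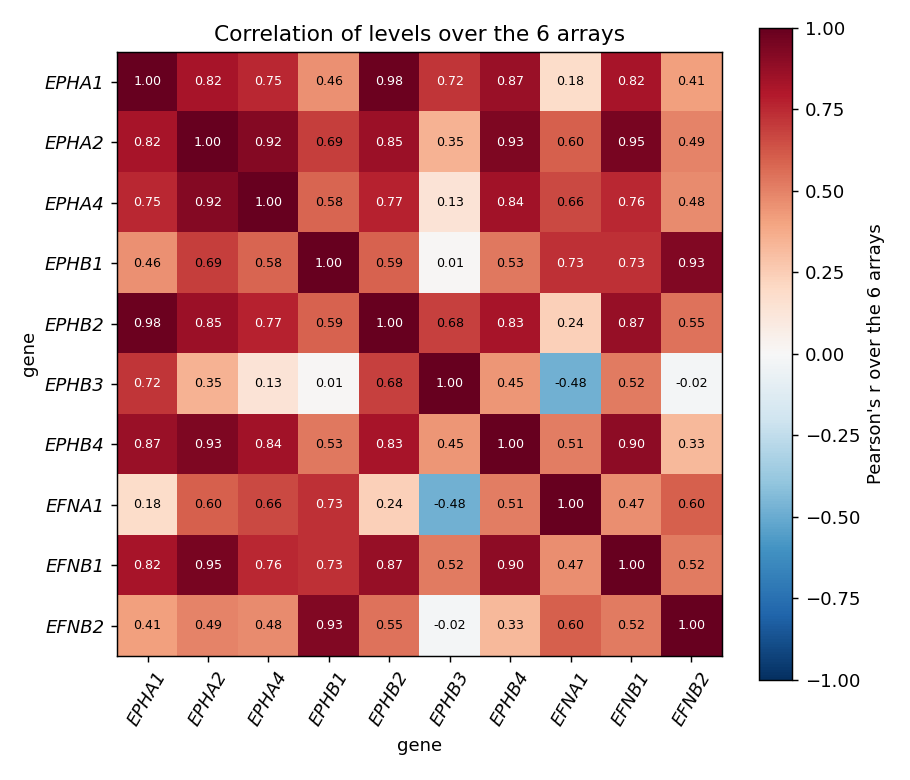
Pearson's r between the levels of each pair of genes (both axes) over the 6 arrays, coloured from blue (negative) to red (positive). EPHA1, EPHA2, EPHA4, EPHB2, EPHB4 and EFNB1 form a block with r between 0.75 and 0.98, while EPHB1, EPHB3, EFNA1 and EFNB2 have lower values with each of them.

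The 250 bases before the annotated start of each gene were read from RefSeq (GRCh38.p14), which held all 10 genes. They are shown for the 3 genes with the largest differences, 5′ to 3′ on the strand of the gene, with matches to the GC box (GGGCGG, also as CCGCCC) and to the cyclic AMP response element (TGACGTCA) in capitals. All 3 lie on the minus strand, EPHA2 at chr1:16156070-16156319, EPHA4 at chr2:221574203-221574452 and EPHB4 at chr7:100827524-100827773.
EPHA2: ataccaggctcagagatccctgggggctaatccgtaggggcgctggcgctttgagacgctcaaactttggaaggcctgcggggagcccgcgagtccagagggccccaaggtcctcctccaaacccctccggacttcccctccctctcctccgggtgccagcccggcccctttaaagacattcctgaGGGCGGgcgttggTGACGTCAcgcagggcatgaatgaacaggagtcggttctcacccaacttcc
EPHA4: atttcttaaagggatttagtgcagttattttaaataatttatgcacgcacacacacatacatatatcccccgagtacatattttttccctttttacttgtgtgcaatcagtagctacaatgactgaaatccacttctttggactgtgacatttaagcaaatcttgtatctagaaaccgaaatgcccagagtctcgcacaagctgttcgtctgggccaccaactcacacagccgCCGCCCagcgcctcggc
EPHB4: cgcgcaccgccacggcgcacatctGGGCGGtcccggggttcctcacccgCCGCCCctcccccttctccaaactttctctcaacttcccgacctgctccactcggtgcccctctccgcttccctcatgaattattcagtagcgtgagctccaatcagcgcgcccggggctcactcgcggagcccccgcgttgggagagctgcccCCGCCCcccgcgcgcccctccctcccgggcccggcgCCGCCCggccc

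Of 6 motifs searched on both strands, the full cyclic AMP response element was found in the window of EPHA2, with its upstream end 51 bases before the start, and in no other of the 10 windows. It was present in 1.65% of the 35116 promoter windows of the reference. A GC box on either strand was found in all 10 windows and in 42.6% of all windows. This motif consists of G and C only, and the windows were not matched for base composition. There was 1 GC box for EPHA2, 1 for EPHA4 and 4 for EPHB4, while the windows of EPHA1 and EFNA1, which did not pass the limits, held 5 each. The TCF/LEF letters CTTTGAA or CTTTGAT, on either strand, were in none of the 10 windows (0 of 10) and in 5.94% of all windows. The CCAAT box (CCAAT) was in 6 of the 10 windows, those of EPHA1, EPHB1, EPHB3, EPHB4, EFNB1 and EFNB2, and in 32.0% of all windows, and was absent from those of EPHA2 and EPHA4. The E-box CACGTG was in none (0 of 10, against 6.34% of all windows), and the TATA box letters TATAAA were in 1, that of EFNB2, against 10.7%. The base composition was unlike between EPHA2 and EPHA4, with 63.2% and 43.2% G and C, against a median of 58% over all windows, and the windows of EPHB4 and EPHB2 held 72.8% and 84.8%. A match describes the letters of the window and not a bound site, and factor binding was not measured in these samples.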

How the data were processed

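Gene expression was measured on 6 Affymetrix GeneChip Human Exon 1.0 ST arrays, 3 of uninduced and 3 of doxycycline-treated Clone 13 cells. The authors deposited log2 expression levels, 1 for each probe set and array, and RMA is named in the submitters' processing notes without a version. The annotation and genome build behind the probe sets are not given in the sources used here. Sorted by size, the levels of any arrays were within 0.024 of each other at every rank, and they were used without further scaling. Probe sets were ranked by mean level only to group them by signal, and no transcript was called more abundant than another.

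Groups and experiment numbers were taken from the sample titles. All 26445 probe sets were tested with limma 3.58.1 in R 4.3.3 (lmFit, eBayes, two-sided), with the experiment as a block because the study used a paired test, with Benjamini-Hochberg adjustment. The limits for calls were those of the study. The fits were tested on simulated data. Alternatives left out the block, ran the study's paired t-test on these values, normalized or centred again, removed the level trend by lowess (span 0.3), dropped the 25% with the lowest signal, changed the variance prior or the fold change minimum, and left out each experiment. Precision is limited by 3 arrays a group.

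The members, lists and tests were chosen with earlier results of these data known. All members were named in the text, with identifiers paired to symbols in the definition of the list. The reference table (59792 genes) held Ensembl identifiers for 0 of them, so the other Eph and ephrin genes, the signalling partners, other receptor tyrosine kinases, cell type markers and KIAA1199 were not analysed here. Promoter windows and gene positions are from RefSeq (GRCh38.p14).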

Additional observations from a re-analysis of the deposited data

How the results depend on the processing

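No result for the 10 genes reached an adjusted p under 0.05 in the 11 alternatives run. With the 6 arrays kept, EPHA2 and EPHA4 stayed past the study's limits in 8 of 8 alternatives, and no other gene crossed them. The adjusted p of EPHA2 was between 0.16 and 0.62 over all 11. Left out in turn, the experiments gave a difference for EPHA2 of 0.296 to 0.345 with unadjusted p of 0.030 to 0.037 (limma). Each time 0 of the 10 genes were past the limits, with only 2 pairs in the fit. Of all 26445 probe sets, 1344, 994 and 986 were past them without experiment 1, 2 and 3. A fold change minimum of 1.5 also left 0 of the 10 genes, and it left 238 of all probe sets. No minimum gave 3 of the 10 genes and 6.87% of all probe sets. EFNB2 changed sign, to -0.0065 without experiment 2 and -0.043 without experiment 3, and was 0.15 without experiment 1; it was not past the limits in any of these fits. The other 9 genes stayed above 0 throughout. For EPHB1 the difference was 0.03 with the 6 arrays, 0.058 without experiment 1 and 0.002 without experiment 3.

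The number of all probe sets past the limits, 1543 with limma and the block, was 1050 with no replicate block, 577 with the study's t-test, 238 with a fold change minimum of 1.5, and between 986 and 1344 without an experiment (986 without experiment 3, 994 without experiment 2). Fewer arrays enter the fits without an experiment, and no other cause was tested. With no replicate block EPHA2 had an unadjusted p of 0.013, EPHA4 of 0.015 and EPHB4 of 0.022, and the block changed no call for the 10 genes at the study's limits. Deviations of same-numbered arrays from their group means correlated with an r of 0.04, 0.05 and 0.13 over all probe sets, so the pairing rests on the study's paired design and not on the values. The second quantile normalization and the centring changed no difference of the 10 genes by more than rounding. The lists other than the 10 genes were not run, since their identifiers could not be matched. Without detection calls, what the background limits in EPHB1 and EPHB3 was not measured.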
